A study of Mus musculus with 4 samples.

Results

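The ephrin ligands of the mouse are encoded by 8 genes, *Efna1* to *Efna5* (class A) and *Efnb1* to *Efnb3* (class B), and all were chosen by gene symbol from the 56883 genes of the deposited table. Of the 8 genes, 7 passed the filter on low values (10 or more normalized counts on average across libraries) and were tested beside 14323 genes in all, while *Efna1* did not pass. The libraries hold total RNA of tdTomato-positive cells, sorted by fluorescence from the basal telencephalon at E14.5 (embryonic day). Control libraries came from *Sst-Cre/tdTomato* embryos and *Dnmt1* knockout (KO) libraries from *Sst-Cre/tdTomato/Dnmt1 loxP2* embryos, in which the maintenance DNA methyltransferase gene *Dnmt1* is floxed. Both genotypes thus carried the Cre driver and the reporter, and Cre is made from the somatostatin gene, so that recombination and labelling start only once a young interneuron expresses *Sst*. Each genotype had 2 libraries, every one a pool of cells from several embryos, so the errors and p-values describe the spread between pools and not between single animals. The errors of the genotype test also draw on the spread of other genes of similar level. The question addressed by the comparison is which transcripts differ when migrating somatostatin interneurons lose *Dnmt1*.

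Ephrins are membrane-bound guidance cues that act between touching cells. Class A ephrins are held in the membrane by a lipid (GPI) anchor and bind mainly EphA receptors, whereas class B ephrins span the membrane and bind mainly EphB receptors and also EphA4. Binding signals in both directions, forward into the cell with the Eph receptor and in reverse into the cell with the ephrin, and contact is often followed by repulsion. In the embryonic basal telencephalon, ephrins and Eph receptors are known to keep migrating cortical interneurons within their paths.

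The sorted cells expressed the class B ephrins far above most class A ephrins, and *Efnb2* was the only one of the 7 tested ephrin genes whose level differed between genotypes past the threshold (limma, Benjamini-Hochberg adjusted p below 0.05). *Efnb2* was 1.30-fold higher in *Dnmt1* KO. *Efnb1* and *Efnb3* did not pass, nor did *Efna2*, *Efna3*, *Efna4* or *Efna5*. All 10 markers of interneurons from the medial ganglionic eminence (MGE, the birthplace of somatostatin interneurons) were also higher in *Dnmt1* KO, by a median of 0.68 on the log2 scale. Relative to their sum *Efnb2* was lower in *Dnmt1* KO, by 0.29 on the log2 scale. Some of the 10 markers, such as *Gad1* and *Gad2*, are also made by other neurons. Dividing by a sum that is higher in *Dnmt1* KO shifts every gene downward. All 7 tested ephrins were lower on this scale. The shift is the same for every gene, so the order of the ephrins by fold change stays as it was and is no separate result. The study lists *Efnb2* with its upregulated genes, and also *Lhx6*, *Sox6*, *Maf*, *Erbb4* and *Dlx2*, which are among the 10 markers. Those calls for the basal telencephalon rest on the same libraries as the values here, so they are not independent of them. In separate sorted cells from the cortex, not used here, the study also reports *Efnb2* as higher in *Dnmt1* KO.

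Reverse signalling by class B ephrins runs through their cytoplasmic tail, whose end binds PDZ-domain proteins, and this tail is what separates the classes at the sequence level. The last 99 coding bases of the 3 class B genes are shown for that reason, read from GRCm39 on the coding strand without the stop codon. Capitals mark the final 4 codons, which encode the PDZ-binding end.
Efnb1 (chrX:98191032-98191130, plus strand): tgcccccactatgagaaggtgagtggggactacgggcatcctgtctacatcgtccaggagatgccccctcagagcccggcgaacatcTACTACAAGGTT
Efnb2 (chr8:8670591-8670689, minus strand): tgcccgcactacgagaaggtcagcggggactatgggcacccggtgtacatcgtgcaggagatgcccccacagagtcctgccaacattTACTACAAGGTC
Efnb3 (chr11:69446689-69446787, minus strand): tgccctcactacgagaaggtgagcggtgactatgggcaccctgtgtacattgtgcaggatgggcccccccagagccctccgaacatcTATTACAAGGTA
Within this stretch *Efnb1* and *Efnb2* shared 84 of 99 bases, *Efnb2* and *Efnb3* shared 84, and *Efnb1* and *Efnb3* shared 82. The capitals were identical at 11 of 12 bases between *Efnb1* and *Efnb2* and at 10 of 12 bases in the other pairs.

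Levels of different genes were compared as normalized counts per kb of transcript, averaged over the 4 libraries. *Efnb2* stood highest at 454, above 93.9% of the protein-coding genes tested. *Efnb3* followed at 216 and *Efnb1* at 175, above 85.3% and 81.1% of those genes. The highest class A gene was *Efna2*, which encodes a GPI-anchored ligand, at 113. *Efna3* at 28.4 and *Efna5* at 26.9 came next, and the libraries of these 2 genes overlapped in range, so their order is not resolved. *Efna4* at 13.0 and *Efna1* at 5.65 stood lowest. For all other neighbours in this order, the ranges over the 4 libraries did not overlap.

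**Figure D1:**
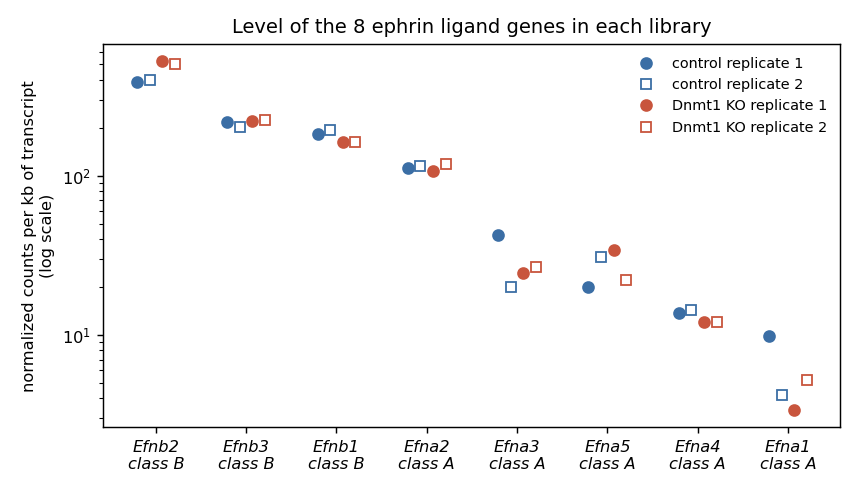
Normalized counts per kb of transcript (log scale) of the 8 ephrin ligand genes, ordered by mean level, with 1 point per library (blue, control; red, *Dnmt1* KO; filled circles, replicate 1; open squares, replicate 2). *Efnb2* lies highest, with both *Dnmt1* KO points above both control points, and *Efna3* and *Efna5* show a wide gap between libraries of 1 genotype.

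Added up per kb, the 3 class B genes gave 789 and 796 in control and 909 and 889 in *Dnmt1* KO. The log2 ratio of the group means was 0.18, and the genotypes did not overlap. Without *Efnb2* the class B sum was 399 and 396 in control and 386 and 387 in *Dnmt1* KO. It was thus slightly lower in *Dnmt1* KO, with a log2 ratio of -0.040, and the genotypes did not overlap. Within this remainder the 2 genes differed in opposite directions, and neither passed the genotype test. *Efnb3* went from 216 and 203 per kb to 222 and 224, and *Efnb1* from 183 and 193 to 164 and 163. The class A sum was 197 and 184 in control and 182 and 186 in *Dnmt1* KO, which overlapped. *Efnb2* made up 39.6% and 40.8% of the ephrin total in control and 47.9% and 46.7% in *Dnmt1* KO. With 2 libraries per genotype, an exact permutation test of such a single value cannot give a two-sided p below 0.333, and none was read from these sums.

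*Efnb2* (ENSMUSG00000001300.17, GRCm39 chr8:8667226-8711249, minus strand, 5 exons) encodes the class B ligand ephrin-B2, known as a guidance cue and as a marker of arteries. Its normalized counts were 1953 and 2004 in control and 2617 and 2515 in *Dnmt1* KO. Both *Dnmt1* KO libraries lay above both control libraries, with means of 1979 ± 35.7 and 2566 ± 71.9 (SD, n = 2 each). The log2 fold change was 0.37 with a standard error of 0.054 and a 95% interval of 0.26 to 0.49 (limma adjusted p = 0.000196). At 1963 to 2653 reads per library, *Efnb2* is by far the best counted of the ephrins, and the libraries of 1 genotype did not differ beyond counting error (exact binomial adjusted p = 0.538 in each genotype).

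*Efnb1* (ENSMUSG00000031217.9, GRCm39 chrX:98179680-98205454), the X-linked class B ligand, gave 605 and 639 normalized counts in control and 543 and 539 in *Dnmt1* KO. The *Dnmt1* KO libraries lay below both control libraries. The log2 fold change of -0.20 (SE 0.082) had a 95% interval of -0.38 to -0.025 and did not pass after adjustment (limma adjusted p = 0.111). *Efnb3* (ENSMUSG00000003934.6, GRCm39 chr11:69444918-69451323), the third class B ligand, gave 751 and 706 in control and 772 and 779 in *Dnmt1* KO. Its groups did not overlap either, but the log2 difference was only 0.091 (SE 0.075), with an interval of -0.070 to 0.25 (limma adjusted p = 0.463). The upper ends of both intervals lie below the 0.37 estimated for *Efnb2*.

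Among class A genes, *Efna2* (GRCm39 chr10:80015266-80025844) was the only well-counted member and was nearly level, at 243 and 250 normalized counts in control and 235 and 260 in *Dnmt1* KO. Its log2 fold change of 0.0046 had an interval of -0.25 to 0.25, that is a fold between 0.844 and 1.19 (limma adjusted p = 0.987). *Efna4* gave 22.4 and 23.5 in control and 19.7 in each *Dnmt1* KO library, from 18 to 25 reads, and its interval of -0.99 to 0.57 leaves a large change in either direction undetectable at this depth (limma adjusted p = 0.754). *Efna1* gave 14.3 and 6.13 in control and 4.93 and 7.65 in *Dnmt1* KO, from 5 to 16 reads, and was too low for the test. With a minimum mean of 1 in place of 10, its log2 fold change was -0.54 (SE 0.59, limma adjusted p = 0.637). *Efna1*, *Efna3* and *Efna4* are neighbours on the minus strand within 66.3 kb of chromosome 3 (GRCm39 chr3:89179037-89245373). *Efna3* and *Efna4* did not pass the test, and *Efna1* was not part of it at the minimum of 10.

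*Efna3* varied within control, and *Efna5* within each genotype, more than the means of the genotypes differed. *Efna3* gave 100 and 47.0 normalized counts in control, a 2.13-fold gap, and 58.2 and 63.4 in *Dnmt1* KO. The control libraries thus enclosed both *Dnmt1* KO libraries, and the log2 fold change was -0.17 with an interval of -0.80 to 0.45 (limma adjusted p = 0.741). *Efna5*, the ligand of EphA receptors with the longest gene of the family (278 kb on chromosome 17), gave 105 and 163 in control and 180 and 117 in *Dnmt1* KO. Its log2 fold change was 0.15 with an interval of -0.32 to 0.61 (limma adjusted p = 0.709). The reads of the libraries within a genotype were compared by an exact binomial test for all 8 genes and both genotypes, 16 comparisons that concern libraries and not conditions. These tests cover counting error only. The *Efna3* control libraries differed beyond counting error (112 against 46 reads, exact binomial adjusted p = 0.000155), as did the *Efna5* libraries in control (117 against 160 reads, exact binomial adjusted p = 0.00144) and in *Dnmt1* KO (182 against 107 reads, exact binomial adjusted p = 0.00261). None of the other 13 comparisons passed.

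Across the family, 1 of 7 tested genes was called, beside 17.3% of all genes tested, and that gene was higher, beside 8.3% of all genes called higher. No ephrin gene was called lower, beside 8.99% of all genes. The median log2 fold change was -0.085 over the 4 tested class A genes and 0.091 over the 3 class B genes, beside -0.0033 over all genes tested. The genotypes did not overlap for *Efna4*, *Efnb1*, *Efnb2* and *Efnb3*, 4 of the 7 tested genes, which is the background share of 57.4% of all genes tested. Neither count sets the family apart from other genes.

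**Figure D2:**
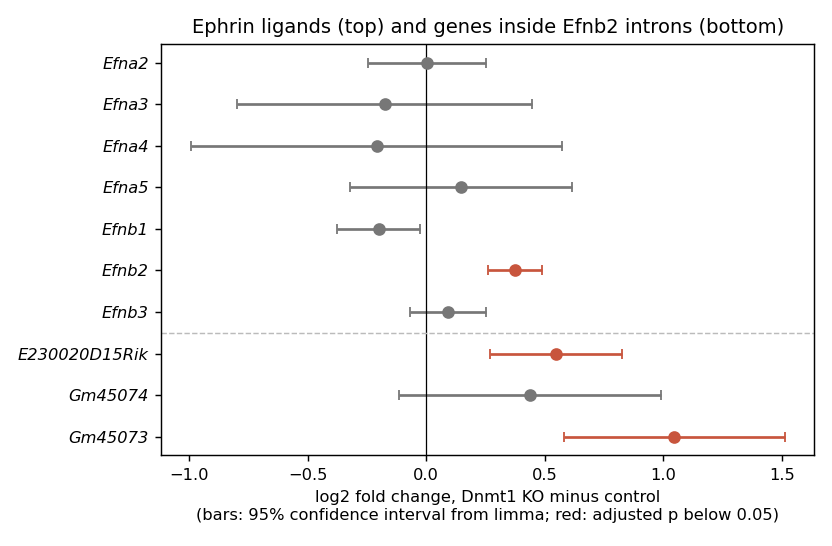
Log2 fold change (*Dnmt1* KO minus control) with its 95% interval from limma for the 7 tested ephrin genes (above the dashed line) and for 3 genes annotated inside introns of *Efnb2* (below it), with red marking an adjusted p below 0.05. *Efnb2*, *E230020D15Rik* and *Gm45073* lie to the right of 0, and the intervals of the other ephrins include 0 except that of *Efnb1*, which ends at -0.025.

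Because the class B genes are counted in the same library, their ratio does not depend on how libraries are scaled. The normalized count of *Efnb2* was 3.23 and 3.14 times that of *Efnb1* in control and 4.81 and 4.67 times in *Dnmt1* KO, a 1.49-fold shift. Relative to *Efnb3* it was 2.60 and 2.84 times in control and 3.39 and 3.23 times in *Dnmt1* KO, a 1.22-fold shift. The ratio of *Efnb3* to *Efnb1* moved from 1.24 and 1.11 to 1.42 and 1.45. In each of the 3 ratios the genotypes did not overlap, and the exact permutation test could not go below p = 0.333. *Efnb2* was thus higher relative to both other class B ligands.

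Reads were also counted to genes annotated inside *Efnb2*, which are named here after their values were seen. The annotation places 3 single-exon genes of unproven status (TEC) on the strand of *Efnb2* within its introns, sharing no exon base with it. *E230020D15Rik* (chr8:8679175-8685073, intron 2 of 4) gave 154 and 175 normalized counts in control and 245 and 236 in *Dnmt1* KO, a log2 fold change of 0.55 (SE 0.13, limma adjusted p = 0.00848). *Gm45073* (chr8:8692766-8697012, intron 1) gave 41.2 and 50.02 in control and 95.7 and 94.0 in *Dnmt1* KO, a log2 fold change of 1.05 (SE 0.22, limma adjusted p = 0.00374). *Gm45074* (chr8:8687966-8689205, intron 2) gave 36.7 and 41.9 in control and 58.2 and 49.2 in *Dnmt1* KO, which did not pass (limma adjusted p = 0.281). All 3 had both *Dnmt1* KO libraries above both control libraries. Of all genes tested, the genotypes did not overlap for 57.4%, in either direction, and 8.3% were called higher. Total RNA holds unspliced transcripts, so reads from *Efnb2* introns and reads from separate transcripts at these places cannot be told apart. On the opposite strand, *Gm45075* and *4921522P10Rik* share 702 and 42 exon bases with *Efnb2* and gave 0 to 1.09 normalized counts per library. The opposite-strand gene *4731419I09Rik* shares 168 exon bases with *Efna4* and gave 5.92 to 7.65. The libraries were made with a stranded kit, but whether the counting used strand is not stated, so a part of the few reads of *Efna4* may be shared with this gene.

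DNMT1 copies methylation at the dinucleotide CG, and the stretch upstream of *Efnb2* is shown because it is rich in such sites. The 250 bases before the annotated start hold 27 CG sites, shown in capitals, against a median of 13 over 12278 protein-coding genes tested, and 10.2% of those genes have as many or more. CG reads the same on both strands. The upstream stretch of *Efna5* held 32, that of *Efnb1* 12 and that of *Efnb3* 8. No methylation was measured in the libraries used here, so the count of sites is a description of sequence only. The study sequenced methylation in separate samples of such sorted cells. For *Efnb2* it reports sites that lost and sites that gained methylation in *Dnmt1* KO, which were not examined here.
Efnb2 upstream (GRCm39 chr8:8711250-8711499, minus strand): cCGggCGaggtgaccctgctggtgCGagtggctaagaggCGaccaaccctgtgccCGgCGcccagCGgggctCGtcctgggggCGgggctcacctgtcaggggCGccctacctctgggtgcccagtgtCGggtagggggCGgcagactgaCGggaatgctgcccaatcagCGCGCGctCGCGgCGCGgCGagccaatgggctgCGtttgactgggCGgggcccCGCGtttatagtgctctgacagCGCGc

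Marker genes of several cell types differed between genotypes, and these values stand beside the *Efnb2* result. In a bulk library, a change in the share of cells of a type and a change in RNA per cell cannot be told apart. All 10 MGE interneuron markers were higher in *Dnmt1* KO, beside 8.3% of all genes tested. The list, named here in full, holds *Sst*, *Lhx6*, *Gad1*, *Gad2*, *Dlx1*, *Dlx2*, *Sox6*, *Maf*, *Erbb4* and *Npy*, and it is not limited to genes made only by MGE interneurons. Their summed normalized count went from 20043 and 20414 to 31991 and 32003. The most abundant were *Sst*, with a log2 fold change of 0.48, and *Lhx6*, a transcription factor gene of MGE interneurons, with 0.73. *Sst* itself gave 5580 and 5963 in control and 8303 and 7825 in *Dnmt1* KO. Expressed relative to *Sst* in the same library, *Efnb2* was 35.0% and 33.6% in control and 31.5% and 32.1% in *Dnmt1* KO. Relative to the sum of the 10 markers it was 9.75% and 9.82% in control and 8.18% and 7.86% in *Dnmt1* KO, so the direction turned, and the genotypes did not overlap. Dividing by this sum, which is higher in *Dnmt1* KO, shifts every gene downward. On this scale *Efnb1* went from 3.02% and 3.13% to 1.70% and 1.68%, and *Efnb3* from 3.75% and 3.46% to 2.41% and 2.43%. These ratios were chosen after the marker values were seen, and again the smallest exact p is 0.333.

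Markers of other cells were mostly lower in *Dnmt1* KO, beside 8.99% of all genes tested that were called lower. Each list is described by its 2 most abundant genes, while *Sox2* was named after its value was seen. Of 8 radial glia genes, 6 were lower, among them *Vim* and *Nes* with a log2 fold change of -1.03 each, and *Sox2* was higher at 0.40. Their sum went from 10056 and 10156 to 5926 and 6131. Of 10 genes of dividing cells, 9 were lower, with *Mki67* at -0.50 and *Top2a* at -0.52 and sums of 6568 and 6352 in control and of 4573 and 4555 in *Dnmt1* KO. Of 9 genes of the pallial excitatory lineage, 7 were lower, with *Tbr1* at -0.66 and *Neurod2* at -0.78 and sums of 2832 and 2864 in control and of 1583 and 1442 in *Dnmt1* KO. Of 9 tested striatal projection neuron genes, 4 were lower, with *Isl1* at -0.84, but *Bcl11b*, which is also made by other neurons, was higher at 0.45. The striatal sum was therefore 4972 and 5028 in control and 5773 and 5557 in *Dnmt1* KO. All 8 tested erythroid genes were lower, with *Hba-a2* at -2.09 and *Hbb-bt* at -1.61 and sums of 2610 and 2433 in control and of 587 and 592 in *Dnmt1* KO. Of 4 tested microglial genes 2 were lower, with *Csf1r* at -1.42, and *Cx3cr1* at -1.22 did not pass. The microglial sums were 113 and 127 in control and 38.5 and 51.4 in *Dnmt1* KO.

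Vessel cells are of interest because arterial endothelium is a known site of *Efnb2* expression. Of 10 tested endothelial genes, 8 were lower in *Dnmt1* KO, with *Kdr* at -1.03 and *Cdh5* at -1.72 on the log2 scale, and the summed count over the 14 listed genes was 666 and 661 in control and 271 and 297 in *Dnmt1* KO, opposite in direction to *Efnb2*. The list holds 4 genes known from arterial endothelium, which are named for that role. *Sox17*, *Bmx* and *Gja4* gave at most 13.3 normalized counts in any library and were not tested. *Gja5* gave 43.0 and 39.8 in control and 22.7 and 28.4 in *Dnmt1* KO, with a log2 fold change of -0.68 that did not pass (limma adjusted p = 0.146). Of 5 tested pericyte genes, 3 were lower, with *Rgs5* at -1.10 and *Pdgfrb* at -1.25 and sums over the list of 284 and 320 in control and 168 and 132 in *Dnmt1* KO. The part of cell makeup in the ephrin levels was not tested.

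**Figure D3:**
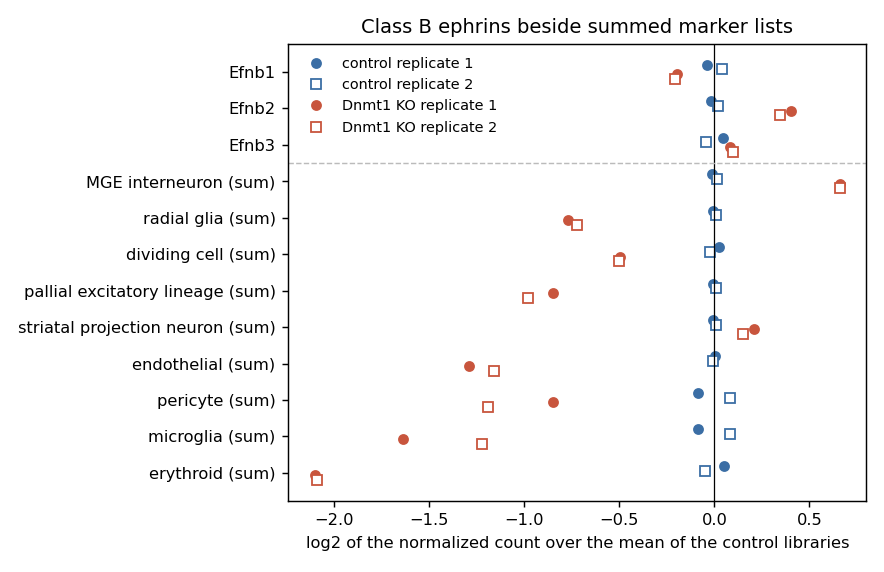
Log2 of the normalized count over the control mean, by library, for the class B ephrins (above the dashed line) and for the summed counts of 9 marker lists (below it), with blue for control and red for *Dnmt1* KO. *Efnb2*, *Efnb3* and the MGE interneuron and striatal sums lie to the right in both *Dnmt1* KO libraries. *Efnb1* and the sums for radial glia, dividing, pallial, endothelial, pericyte, microglial and erythroid genes lie to the left.

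Of the 14 Eph receptor genes, 11 were tested, and 2 were higher and 2 lower in *Dnmt1* KO. Of all genes tested, 8.3% were called higher and 8.99% lower. The median log2 fold change of the tested receptors was 0.14. *Epha5*, the most abundant receptor at 516 normalized counts per kb and a receptor of class A ligands, gave 3177 and 3129 normalized counts in control and 5518 and 5479 in *Dnmt1* KO, a log2 fold change of 0.80 (SE 0.045, limma adjusted p = 2.41e-08). *Epha3*, also a class A receptor, gave 1076 and 1097 in control and 1293 and 1228 in *Dnmt1* KO, a log2 fold change of 0.21 (limma adjusted p = 0.0343). The receptors that fell bind class B ligands. *Ephb1* gave 597 and 578 in control and 349 and 385 in *Dnmt1* KO, a log2 fold change of -0.68 (SE 0.092, limma adjusted p = 0.000114). *Ephb4*, the preferred receptor of ephrin-B2 on veins, gave 115 and 107 in control and 66.1 and 35.0 in *Dnmt1* KO, a log2 fold change of -1.19 (SE 0.26, limma adjusted p = 0.00509), and the endothelial genes above were lower in the same libraries. The other receptors of class B ligands did not pass. *Epha4*, which also binds ephrin-B2, had a log2 fold change of 0.11 with an interval of -0.033 to 0.25 (limma adjusted p = 0.303), and *Ephb2* of 0.099 with an interval of -0.031 to 0.23 (limma adjusted p = 0.301).

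**Figure D4:**
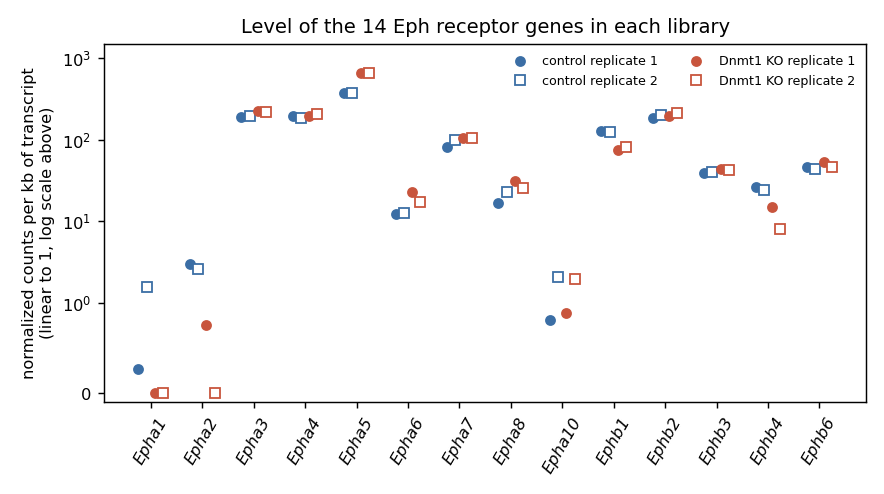
Normalized counts per kb of transcript of the 14 Eph receptor genes in each library (linear up to 1 and log above it), with blue for control and red for *Dnmt1* KO. *Epha5* lies highest with both *Dnmt1* KO points above control, *Ephb1* and *Ephb4* have both *Dnmt1* KO points below control, and *Epha1*, *Epha2* and *Epha10* lie too low for the test.

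Of 14 genes whose proteins are known to act with ephrins inside the ephrin-bearing cell (reverse signalling), 4 were higher and 1 was lower. The shares over all genes tested were 8.3% higher and 8.99% lower. The median log2 fold change of the list was 0.074. *Grip1* and *Grip2* encode PDZ-domain scaffolds that bind class B tails. *Grip1* gave 694 and 686 normalized counts in control and 1132 and 1090 in *Dnmt1* KO, a log2 fold change of 0.69 (limma adjusted p = 8.59e-06). *Grip2* gave 210 and 203 in control and 299 and 310 in *Dnmt1* KO, a log2 fold change of 0.56 (limma adjusted p = 0.00327). The receptor tyrosine kinase gene *Ntrk2* (log2 fold change 0.40) and the Src family kinase gene *Fyn* (0.20) were also higher. *Ptpn13*, a phosphatase with PDZ domains, was lower, with 176 and 207 in control and 118 and 102 in *Dnmt1* KO, a log2 fold change of -0.80 (limma adjusted p = 0.00249). The other 9 genes of the list did not pass.

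Of 18 genes acting below Eph receptors in the receiving cell (forward signalling), 2 were higher and none was lower. Beside them, 8.3% of all genes tested were called higher and 8.99% lower. The list had a median log2 fold change of 0.0093. The higher ones were the guanine nucleotide exchange factor genes *Vav2* (log2 fold change 0.36, limma adjusted p = 0.00863) and *Kalrn* (0.16, limma adjusted p = 0.0421). Of 9 tested cleavage genes, 1 was called, beside 17.3% of all genes tested. This was the metalloprotease gene *Mmp2*, which was higher, with 61.7 and 89.8 normalized counts in control and 135 and 116 in *Dnmt1* KO (limma adjusted p = 0.0212). *Adam10*, named for its role as a protease that cuts ephrins after receptor contact, had a log2 fold change of 0.15 with an interval of -0.021 to 0.32 (limma adjusted p = 0.229). The part of cell makeup in the receptor and partner levels was not tested.

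The genes whose pattern over the 4 libraries was most like that of *Efnb2* were *Cdk19*, *Zfp251* and *Vav2*. Likeness was the Euclidean distance between log2 values centred on each gene's mean, over the 8418 genes that averaged 100 or more normalized counts, and it was 0.014, 0.017 and 0.019 for these genes. All 3 were higher in *Dnmt1* KO, with log2 fold changes of 0.38, 0.39 and 0.36. Values close to that of *Efnb2* follow from this choice by likeness and are no separate result.

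The *Dnmt1* count, summed over the whole gene, was 2238 and 2341 in control and 2164 and 2210 in *Dnmt1* KO, a log2 fold change of -0.066 (limma adjusted p = 0.461). A whole-gene count does not separate the floxed exons from the rest and so does not check the labels. The libraries held between 6970247 and 8376711 reads, as recovered from the normalized counts.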

How the data were processed

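RNA of tdTomato-positive cells, 50000 pooled per genotype, was sequenced from 2 control and 2 *Dnmt1* KO libraries. Per the submitters' processing notes and the study's methods, reads were trimmed, aligned to GRCm39 and quantified with STAR and Salmon, and the authors deposited gene counts divided by DESeq2 (1.32.0, R 4.3.2) size factors, a normalized signal. Libraries were made with a stranded total RNA kit (SMARTer Stranded, Pico Input) and run through the nf-core/rnaseq pipeline, but the strand setting of the counting and the handling of molecular identifiers are not given in the sources used here. Dividing each column by its smallest step returned whole reads for 100% of the 89965 values above 0 (tolerance 0.0001 reads), and depth is the sum of these reads.

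Genes averaging 10 or more normalized counts across libraries were tested with limma 3.58.1 (R 4.3.3) on log2(normalized count + 1), with a variance trend and Benjamini-Hochberg adjustment over 14323 genes. Fold changes are on that scale, which understates changes of low genes. The count tests on recovered reads, edgeR 4.0.16 (quasi-likelihood, 2528 genes called) and DESeq2 1.42.0 (1327 called), were alternatives beside limma (2476 called). The script was tested on simulated data. Transcript lengths and sequences came from GENCODE and GRCm39, using 1 annotated transcript per gene, and 38 tested genes had no annotation. Other alternatives varied the pseudocount, minimum, scaling, length and GC content, and the libraries included. The members, gene lists and tests were chosen with earlier results of these data known. Genes were named by rule: all ephrin ligands, *Dnmt1*, Eph receptors, up to 5 called genes per pathway list, the 2 most abundant genes per marker list and the 3 genes most like *Efnb2*. The text says where a gene was named outside the rule.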

Additional observations from a re-analysis of the deposited data

How the results depend on the processing

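The log2 fold change of *Efnb2* lay between 0.33 and 0.46 over 16 alternatives and passed in 15 of them. Without a variance trend it stayed at 0.37 but did not pass (limma adjusted p = 0.129), as then 0 genes of all tested passed, against 3339 at an unadjusted p under 0.05, so the number of ephrin genes called, and called higher, became 0. Scaled to the summed MGE interneuron markers, which was chosen after seeing the data, *Efnb2* turned to -0.29, *Efnb3* to -0.57, *Efna2* to -0.66 and *Efna5* to -0.52, while *Efnb1* moved to -0.86, *Efna3* to -0.84 and *Efna4* to -0.87. Leaving out 1 library at a time gave 0.35 to 0.40 for *Efnb2*, with limma adjusted p from 1.27e-05 to 0.0026, but turned the sign of *Efna2* (-0.069 to 0.078), *Efna3* (-0.71 to 0.36) and *Efna5* (-0.17 to 0.46). The sign turned without control replicate 1 for *Efna2* (-0.018), *Efna3* (0.36) and *Efna5* (-0.17), without *Dnmt1* KO replicate 2 for *Efna2* (-0.069) and without *Dnmt1* KO replicate 1 for *Efna5* (-0.16), and none of these genes passed in any such fit. *Efnb1* stayed negative (-0.24 to -0.13) and *Efnb3* positive (0.038 to 0.17) over the same 16 alternatives, and neither passed in any of them. Not divided by length, the class B log2 ratio was 0.22. With the replicate number as a block, *Efnb2* was 0.37 (limma adjusted p = 1.01e-07) and 2957 genes passed, but deviations of same-numbered libraries correlated at only -0.085, so the numbers do not pair libraries. Of all genes tested, 2476 passed, against 1327 with DESeq2 and 1525 to 2205 without 1 library (1525 without control replicate 2 and 1648 without control replicate 1). Removing a trend with length and GC content raised *Efnb2* from 0.37 to 0.46. Low reads limit *Efna1* and *Efna4*, and 2 pools per genotype limit every comparison.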
